A study of Mus musculus with 8 samples.

Results

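The type I interferon response genes described here are 41 listed mouse genes: the interferon receptor subunits, the factors that carry their signal, and genes that interferon induces. All 41 were found among the 35944 genes of the deposited table, and 38 of them had counts high enough to be among the 10361 genes tested. The tissue was buffy coat, the layer of white cells and platelets that centrifugation separates from blood. The mice had either been exposed to PM2.5, which is fine airborne particulate matter, or been given PBS, phosphate-buffered saline, over 24 weeks. The PM2.5 group held 4 libraries, labelled 9, 17, 18 and 21, and the PBS group held 4, labelled 4, 10, 12 and 16. The sources used here give no strain, age, sex, dose or route. They also do not state that every library is from its own animal, and the p-values then reflect only the variation among these 8 samples, which may be technical.

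Type I interferons (the interferon alpha and beta family) bind a receptor made of IFNAR1 and IFNAR2. The kinases JAK1 and TYK2 on its inner side then activate STAT2, which acts with IRF9 on a DNA element in the promoters of induced genes, the interferon-stimulated response element. The induced proteins block viruses at entry, translation, RNA copying and budding, and others, such as USP18, damp the receptor. In blood, monocytes and plasmacytoid dendritic cells are known as producers and nearly all leukocytes as responders.

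RefSeq promoter windows of GRCm38.p6, each reaching from 250 bases before to 50 bases after an annotated start, were at hand for 31 of the 41 genes. The core letters of the response element, 2 copies of GAAA with any 2 bases between them, read on both strands with overlaps allowed, occurred in 13 of those 31 genes (41.9%) and in 1079 of 27025 genes with any window (3.99%). Among windows of this length taken singly, 3.44% held it. The windows shown are those of Isg20, Rsad2 and Isg15, the 3 most abundant members, of Oas3, another abundant member whose groups covered much the same range, and of Ifit1, a commonly used reporter of the pathway. Capitals mark the matches.
Isg15, chr4:156200769-156201068, minus strand: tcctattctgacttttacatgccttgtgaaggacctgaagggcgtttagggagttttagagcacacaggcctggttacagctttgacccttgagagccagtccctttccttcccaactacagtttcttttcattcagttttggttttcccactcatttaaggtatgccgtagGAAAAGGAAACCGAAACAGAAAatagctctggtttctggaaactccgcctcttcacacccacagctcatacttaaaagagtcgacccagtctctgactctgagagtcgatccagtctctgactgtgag
Ifit1, chr19:34640639-34640938, plus strand: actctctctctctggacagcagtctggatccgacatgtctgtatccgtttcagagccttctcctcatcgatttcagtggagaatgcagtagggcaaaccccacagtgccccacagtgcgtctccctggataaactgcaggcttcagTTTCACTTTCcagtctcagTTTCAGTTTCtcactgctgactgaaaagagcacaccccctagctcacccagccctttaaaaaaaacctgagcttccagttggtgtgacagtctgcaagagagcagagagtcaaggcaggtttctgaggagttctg
Rsad2, chr12:26456403-26456702, minus strand: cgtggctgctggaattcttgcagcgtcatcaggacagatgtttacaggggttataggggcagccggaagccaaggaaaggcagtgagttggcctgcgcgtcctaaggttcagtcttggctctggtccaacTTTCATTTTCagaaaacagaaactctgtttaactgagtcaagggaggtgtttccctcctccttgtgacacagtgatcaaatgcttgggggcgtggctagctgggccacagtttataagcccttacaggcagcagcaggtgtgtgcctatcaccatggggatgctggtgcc
Oas3, chr5:120777610-120777909, minus strand: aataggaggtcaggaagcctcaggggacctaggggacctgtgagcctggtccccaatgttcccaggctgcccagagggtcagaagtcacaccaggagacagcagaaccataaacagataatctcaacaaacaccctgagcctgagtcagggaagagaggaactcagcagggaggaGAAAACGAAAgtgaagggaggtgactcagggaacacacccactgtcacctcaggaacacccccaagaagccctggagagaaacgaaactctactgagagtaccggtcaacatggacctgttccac
Isg20, chr7:78913985-78914284, plus strand: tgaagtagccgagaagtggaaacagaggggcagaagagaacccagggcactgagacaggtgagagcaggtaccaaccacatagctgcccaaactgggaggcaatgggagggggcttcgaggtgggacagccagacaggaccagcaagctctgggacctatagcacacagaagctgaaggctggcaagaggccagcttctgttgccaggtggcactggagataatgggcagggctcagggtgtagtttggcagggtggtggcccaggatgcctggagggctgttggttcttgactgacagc
Isg15 carried 3 matches that overlapped one another, the first beginning 78 bases before the start. Ifit1 carried 2, on the other strand, the first beginning 104 bases before the start. Rsad2 had 1 match, 120 bases before, and Oas3 had 1, 75 bases before. The Isg20 window printed, which spans the start of the transcript holding most of its counts, had none, and nor did its other windows. A match or its absence describes letters in a window and says nothing of binding.

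Libraries held 72042676 to 89003592 expected counts, of which the 4 haemoglobin genes took 86.7% to 88.7% with PM2.5 and 82.4% to 87.9% with PBS. Levels are CPM (counts scaled to a common library size) of libraries scaled by TMM, a method that sets the middle of the gene distribution equal between libraries. The scaling factors were 0.638 to 1.105 with PM2.5 and 0.832 to 1.518 with PBS. PM2.5 libraries 17 and 18 had the lowest scaling factors (0.644 and 0.638) and the highest summed erythroid markers (35688 and 36884 CPM). The brain-expressed gene Camk2a was at 1.43 and 1.79 CPM in them, and listed at 0 in PM2.5 libraries 9 and 21. The sum of the 12 listed brain markers did not set them apart, but Camk2a is a small part of it. Of the 12, 7 were under the low-count filter, so the sum cannot tell whether these libraries hold brain RNA. The sums were 53.8 and 79.6 CPM in libraries 17 and 18, 88.6 and 72.2 CPM in 9 and 21, and 39.8 to 69.9 CPM with PBS. Summed platelet markers ran in the same order within each group. They were at 754 and 1115 CPM in 17 and 18, 1234 and 987 CPM in 9 and 21, and 635 to 1171 CPM with PBS. The overall counts are also given without PM2.5 libraries 17 and 18. So are members whose log2 fold change then moved by over 1.5 times or whose call is discussed. Summed erythroid markers (17 of 18 listed were in the table, and 16 of 17 had a positive fold change) were at 21087 to 36884 CPM with PM2.5 and 16967 to 27858 CPM with PBS. Summed monocyte markers were at 160 to 247 CPM with PM2.5 and 127 to 199 CPM with PBS. Of the 14, 3 were called higher by edgeR (Ccr2 at a log2 fold change of 1.99, Vcan at 2.23 and Ms4a6c at 1.04). In all, 11 were positive and 3 negative, Fn1 (-0.57), Cd14 (-0.20) and Ace (-0.09). Neutrophil markers summed to 30.9 to 58.8 CPM with PM2.5 and 18.5 to 39.5 CPM with PBS, with 3 of 9 called higher. Of those 9, 6 had a positive log2 fold change and 3 a negative one, Cxcl2 (-1.04), Il1r2 (-0.78) and Hdc (-0.22). B cell markers summed to 45.1 to 57.2 CPM with PM2.5 and 51.7 to 83.6 CPM with PBS. All 13 tested had negative fold changes, and Ebf1, Blk and Bank1 were called lower. Natural killer cell markers summed to 6.61 to 11.4 CPM with PM2.5 and 4.94 to 7.05 CPM with PBS. Of these 10, 8 were positive and Ncr1 was called higher. Positive values were found for 9 of 14 T cell and 13 of 13 platelet markers, with none called. Of all genes, 54.3% were positive, 0.463% were called higher and 1.14% lower. The leukocyte gene Ptprc was at 34.7 to 40.5 CPM with PM2.5 and 40.2 to 48.3 CPM with PBS, so that leukocyte RNA was counted in every library beside that of red cells. The 10 plasmacytoid dendritic cell markers summed to 6.13 to 7.03 CPM with PM2.5 and 6.95 to 10.2 CPM with PBS. Most of that came from Ly6d, Tcf4 and Spib, which B cells also express, and for Tcf4 all PM2.5 libraries lay below all PBS libraries (log2 fold change -0.72, adjusted p = 0.0581), while Cox6a2 was listed at 0 in all 8 libraries and Siglech reached at most 0.0925 CPM. The part of these cell markers in the member results was not tested. In bulk RNA, fewer cells of a type and less RNA per cell cannot be told apart.

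Levels of the members relative to one another are given in FPKM, which divides by transcript length. Isg20, an exonuclease for single-stranded RNA, averaged 1199 ± 132 FPKM with PM2.5 and 1225 ± 41.1 FPKM with PBS (SD, n = 4 each), and its mean over all libraries ranked 15 among all genes. Rsad2, whose product viperin makes a chain-terminating nucleotide, averaged 405 ± 50.2 FPKM with PM2.5 and 424 ± 67.8 FPKM with PBS, and ranked 49. Isg15, the ubiquitin-like modifier, averaged 109 ± 38.7 FPKM with PM2.5 and 101 ± 26.6 FPKM with PBS. The ranges of these 3 over the 8 libraries (1008 to 1308, 346 to 490 and 62.5 to 153 FPKM) did not meet. Below them came Ifi27 (35.9 FPKM over all libraries), Ifitm3 (24.1), Sp100 (19.5), Irf7 (17.4) and Oas3 (14.1), and the range of each over the libraries overlapped the next. A further 11 members averaged 1 to 10 FPKM and 22 were under 1 FPKM. Rsad2 and Isg20 alone held 87.1% to 90.8% of all member counts in each library. Cmpk2, which lies beside Rsad2 on chromosome 12 on the opposite strand and is classically induced with it, averaged only 1.01 ± 0.272 FPKM with PM2.5 and 1.00 ± 0.357 FPKM with PBS. A sum over the members is therefore mostly a sum of Isg20 and Rsad2, and none is used here.

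**Figure D1:**
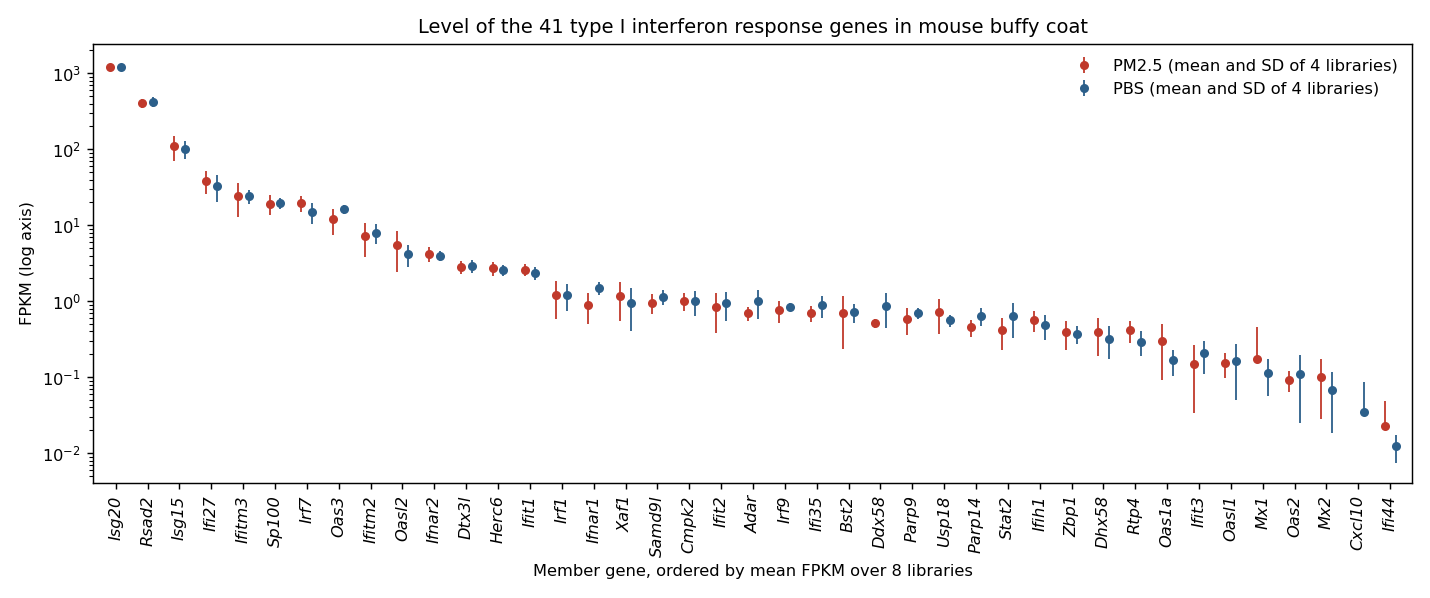
Mean FPKM with SD (n = 4) for each of the 41 members on a log axis, PM2.5 in red and PBS in blue, ordered by the mean over 8 libraries. The lower bar is left out where the SD exceeds the mean, and Cxcl10 has no PM2.5 point because it was listed at 0. Isg20 and Rsad2 stand above the other members in both groups.

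The comparison of PM2.5 with PBS asked which members differed after exposure. With TMM scaling 35 of the 38 tested members had a positive log2 fold change, against 54.3% of all genes, but on library totals, where the median of all genes moved from 0.04 to -0.52, only 14 of 38 were positive, against 6.89% of all genes. The member median was 0.50, beside 0.04 for all genes, and the values ran from -0.28 (Ifnar1) to 1.24 (Oas1a). No member passed an adjusted p of 0.05 in edgeR's quasi-likelihood test, which called 0.463% of all genes higher and 1.14% lower. At an unadjusted p under 0.05, 17 members were higher and 0 lower, beside 8.79% and 9.28% of all genes. That count of 17 depended on single libraries, being 7 without PBS library 10, 9 without PBS library 4 and 11 without PM2.5 library 21, and on library totals it was 0 (0.261% of all genes) with 1 member lower. The counts by role below are parts of these 17 and share that dependence. All PM2.5 libraries lay above all PBS libraries for 2 members, Usp18 and Rtp4, and the reverse held for 0, beside 3.01% and 6.64% of all genes. DESeq2 called 3 members higher, Usp18, Rtp4 and Oasl2, where it called 1.07% of all genes higher. With no filter on low counts edgeR called 10 members higher, beside 1.74% of all genes. They were Cmpk2, Ifi27, Ifih1, Ifit1, Ifnar2, Irf7, Oas1a, Oasl2, Rtp4 and Usp18. Without PM2.5 libraries 17 and 18, 0 of 39 tested members were called by edgeR, 7 had an unadjusted p under 0.05, the median was 0.40, and 0.0718% of all genes were called in either direction.

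**Figure D2:**
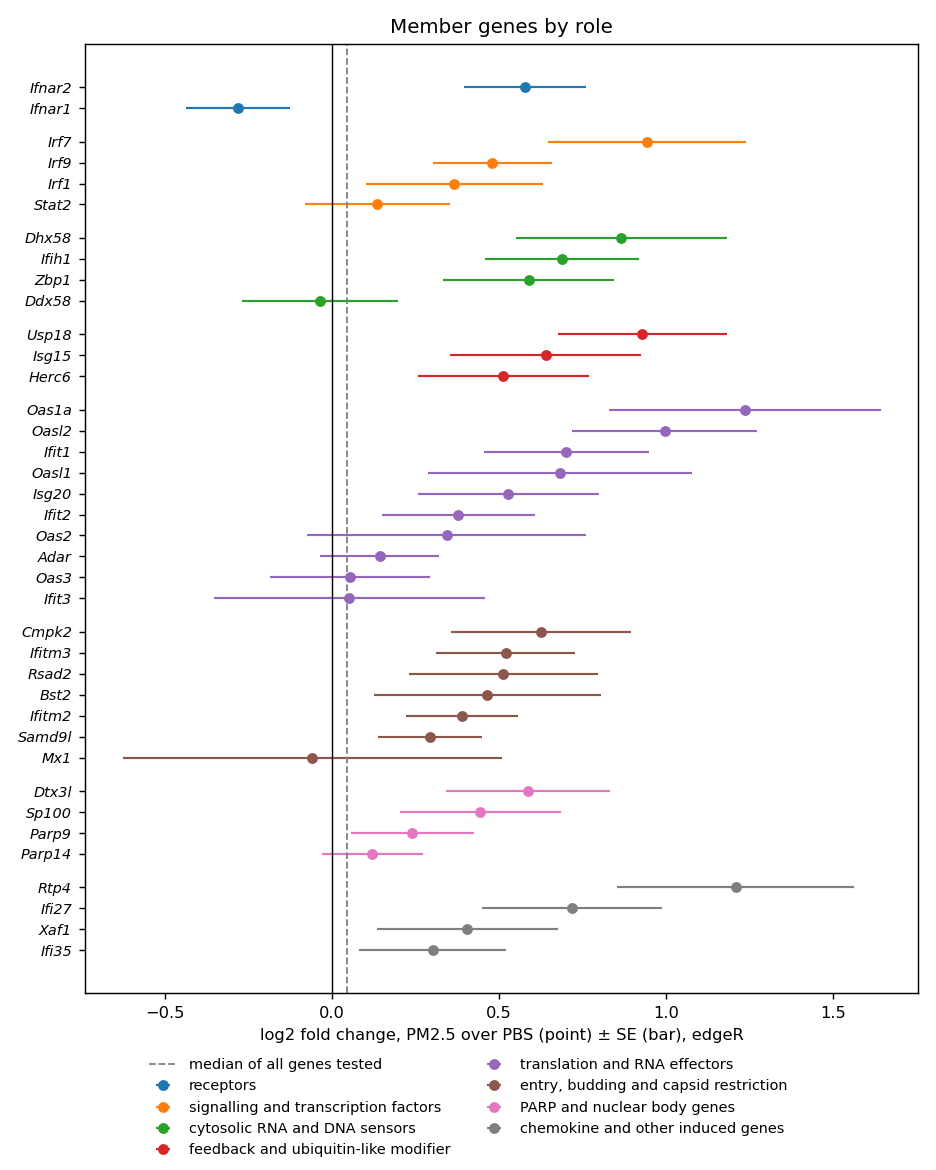
Log2 fold change of PM2.5 over PBS (point) with its SE (bar) from edgeR for the 38 tested members, coloured by role, with the median of all genes as a dashed line. With TMM scaling 35 points lie right of 0, while 14 of 38 did so on library totals.

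The 2 receptor subunits, both on chromosome 16, went apart in sign. Ifnar2, the subunit that binds interferon with the higher affinity, was at 3.92, 5.55, 4.13 and 3.64 CPM in PM2.5 libraries 9, 17, 18 and 21, against 2.42, 2.42, 3.74 and 2.98 CPM in PBS libraries 4, 10, 12 and 16. The groups overlapped only through PM2.5 library 21 and PBS library 12 (log2 fold change 0.58, SE 0.182, adjusted p = 0.119 in edgeR). Ifnar1, the other subunit, was at 3.35, 3.35, 2.46 and 2.73 CPM with PM2.5, against 3.47, 3.32, 3.66 and 4.02 CPM with PBS. Its 2 highest PM2.5 libraries were level with the lowest PBS library (log2 fold change -0.28, SE 0.155, adjusted p = 0.342). The deposited counts per transcript, whose split is an estimate, assigned 71.8% to 84.0% of Ifnar2 counts to the 248-codon transcript Ifnar2-203 with PM2.5 and 62.6% to 69.8% with PBS. The 513-codon transcript Ifnar2-201 took 13.1% to 19.5% with PM2.5 and 22.5% to 33.2% with PBS, from 29.3 to 59.2 counts per PM2.5 library and 62.2 to 109 counts per PBS library. These shares were looked at after other results were known and were not tested.

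Of the 4 signalling genes, all had positive log2 fold changes (median 0.42). At an unadjusted p under 0.05, 2 were higher, beside 8.79% of all genes. Irf7, the factor that amplifies interferon alpha production, was at 22.3, 40.4, 38.2 and 40.3 CPM with PM2.5, against 9.58, 12.5, 29.6 and 21.7 CPM with PBS. The PM2.5 libraries other than 9 lay above every PBS library, and library 9 fell between PBS 16 and PBS 12 (log2 fold change 0.94, SE 0.296, adjusted p = 0.117). Without PBS library 12 Irf7 passed in edgeR with 1.27 (adjusted p = 0.0395), the only member to do so under that choice. It did not pass without any other single library (edgeR adjusted p = 0.0687 to 0.409). Irf9, which carries STAT2 to DNA, was at 2.17, 2.82, 2.54 and 3.11 CPM with PM2.5, against 1.67, 1.52, 2.32 and 2.14 CPM with PBS, so that a single PBS library, 12, reached into the PM2.5 range (0.48, SE 0.178, adjusted p = 0.180). Irf1, an activator shared with interferon gamma, and Stat2 had log2 fold changes of 0.37 and 0.14. Irf7 overlaps Phrf1 on the opposite strand and Irf9 overlaps Rnf31 on the same strand, so that some reads may be shared.

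Among the 4 sensors (median log2 fold change 0.64), 3 were higher at an unadjusted p under 0.05, beside 8.79% of all genes. Ifih1, which encodes the long double-stranded RNA sensor MDA5, was at 1.53, 3.48, 2.35 and 2.46 CPM with PM2.5, against 1.32, 1.10, 1.67 and 1.97 CPM with PBS. PM2.5 library 9 alone lay within the PBS range (0.69, SE 0.230, adjusted p = 0.139), and without PM2.5 libraries 17 and 18 the log2 fold change was 0.40. Dhx58, which encodes their regulator LGP2, was at 0.386, 0.550, 0.814 and 0.523 CPM with PM2.5, against 0.348, 0.243, 0.189 and 0.436 CPM with PBS, again with library 9 within the PBS range (0.87, SE 0.315, adjusted p = 0.172; 0.56 without PM2.5 libraries 17 and 18). Zbp1, a sensor of left-handed nucleic acid, had a log2 fold change of 0.59 (SE 0.256), while Ddx58, which encodes the sensor RIG-I, was at -0.03 (SE 0.234; -0.17 without PM2.5 libraries 17 and 18).

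The 3 genes of feedback and of the ubiquitin-like modifier included the smallest p of all members. Usp18, which removes ISG15 from proteins and blocks the receptor at IFNAR2, was at 0.896, 0.916, 1.24 and 1.58 CPM with PM2.5, against 0.439, 0.494, 0.756 and 0.763 CPM with PBS. All 4 PM2.5 libraries lay above all 4 PBS libraries (log2 fold change 0.93, SE 0.253, edgeR adjusted p = 0.0740, DESeq2 adjusted p = 0.0374), and without PM2.5 libraries 17 and 18 the log2 fold change was 1.02 (edgeR adjusted p = 0.233). Isg15 was at 35.3, 79.0, 39.8 and 63.0 CPM with PM2.5, against 25.6, 22.0, 48.2 and 43.5 CPM with PBS. Its PM2.5 libraries 9 and 18 lay below PBS libraries 12 and 16 (0.64, SE 0.285, adjusted p = 0.250). Herc6, the main ISG15 ligase of mice, had a log2 fold change of 0.51 (SE 0.255), and of 0.27 without PM2.5 libraries 17 and 18.

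The 10 genes acting on translation and RNA had a median log2 fold change of 0.45. At an unadjusted p under 0.05, 3 were higher, beside 8.79% of all genes. Oas1a, an oligoadenylate synthetase that switches on RNase L, was at 0.560, 0.257, 0.389 and 0.891 CPM with PM2.5, against 0.0823, 0.261, 0.311 and 0.264 CPM with PBS. PM2.5 library 17 lay level with PBS libraries 10 and 16, and the size of the log2 fold change, 1.24, came with an SE of 0.407 (adjusted p = 0.132). Without PM2.5 libraries 17 and 18 it was 1.68 (adjusted p = 0.155). Oasl2, an oligoadenylate synthetase-like protein with ubiquitin-like domains, was at 5.29, 10.4, 6.98 and 14.7 CPM with PM2.5, against 3.73, 3.11, 5.59 and 6.36 CPM with PBS. PM2.5 library 9 again lay within the PBS range (1.00, SE 0.277, edgeR adjusted p = 0.0804, DESeq2 adjusted p = 0.0431), and leaving it out brought the edgeR adjusted p to 0.0336 with a log2 fold change of 1.16. Without any other single library Oasl2 did not pass (edgeR adjusted p = 0.0505 to 0.329). Ifit1, which binds RNA lacking the host cap methylation, was at 4.76, 9.53, 8.53 and 7.89 CPM with PM2.5, against 3.52, 3.08, 7.09 and 5.21 CPM with PBS. PM2.5 library 9 was below PBS libraries 12 and 16, and the other PM2.5 libraries were above all PBS libraries (0.70, SE 0.247, adjusted p = 0.161; 0.42 without PM2.5 libraries 17 and 18).

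Isg20 and Oas3, both abundant, were singled out after their values were seen. Isg20 was at 710, 1283, 993 and 772 CPM with PM2.5, against 515, 574, 898 and 621 CPM with PBS, with PBS library 12 above PM2.5 libraries 9 and 21 (log2 fold change 0.53, SE 0.271, adjusted p = 0.309). Without PM2.5 libraries 17 and 18 it was 0.19 (adjusted p = 0.853). Oas3, another oligoadenylate synthetase, was at 39.6, 54.8, 71.0 and 80.3 CPM with PM2.5, against 51.6, 44.3, 76.6 and 64.1 CPM with PBS. The groups thus covered much the same range (log2 fold change 0.05, SE 0.240, edgeR adjusted p = 0.922). The remaining log2 fold changes were 0.68 for Oasl1, 0.38 for Ifit2, 0.34 for Oas2, 0.14 for the RNA-editing enzyme Adar and 0.05 for Ifit3, with SEs of 0.179 to 0.417. Without PM2.5 libraries 17 and 18, Adar was at 0.04, Ifit3 at 0.38 and Oas3 at 0.01. The Oas, Ifit, Ifitm, Mx and Sp100 families hold closely similar genes, among which the counting may have split reads.

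Of the 8 genes that restrict entry, copying and budding, 7 were tested, with a median log2 fold change of 0.47. At an unadjusted p under 0.05, 3 were higher, beside 8.79% of all genes. Ifitm3, which hinders fusion of viruses with endosomes, was at 7.87, 10.3, 9.59 and 15.7 CPM with PM2.5, against 7.74, 5.77, 9.17 and 7.64 CPM with PBS (0.52, SE 0.209, adjusted p = 0.213). Ifitm2, its close relative, was at 3.54, 2.49, 2.42 and 3.42 CPM with PM2.5, against 2.52, 2.13, 2.09 and 2.36 CPM with PBS (0.39, SE 0.166, adjusted p = 0.234). A single PBS library reached into the PM2.5 range for each, library 12 for Ifitm3 and library 4 for Ifitm2, and Ifitm2 was at 0.62 without PM2.5 libraries 17 and 18. Rsad2, taken after its level was seen, was at 1212, 2283, 1901 and 1637 CPM with PM2.5, against 1082, 884, 1632 and 1328 CPM with PBS (0.51, SE 0.284, adjusted p = 0.343), and at 0.21 without PM2.5 libraries 17 and 18 (adjusted p = 0.848). Its neighbour Cmpk2, a mitochondrial nucleotide kinase also taken afterwards, was at 1.86, 5.04, 3.98 and 3.90 CPM with PM2.5, against 2.23, 1.33, 2.75 and 3.21 CPM with PBS (0.63, SE 0.269, adjusted p = 0.236; 0.27 without PM2.5 libraries 17 and 18). In both, library 9 was the lowest of the PM2.5 group and lay inside the PBS range. Bst2, which tethers budding virus, was at a log2 fold change of 0.47 (SE 0.340) and Samd9l, a translation brake, at 0.29 (SE 0.155). Mx1, an antiviral GTPase, was at -0.06 (SE 0.568). Its relative Mx2 was under the filter, with 3 to 16 counts per PM2.5 library and 5 to 9 per PBS library.

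The 4 PARP and nuclear body genes had positive log2 fold changes with a median of 0.34. Dtx3l, a ubiquitin ligase, was at 10.9, 26.6, 18.4 and 16.1 CPM with PM2.5, against 9.71, 9.01, 14.8 and 14.4 CPM with PBS (0.59, SE 0.244, adjusted p = 0.227). Sp100, a nuclear body protein, was at 21.1, 45.3, 29.7 and 35.9 CPM with PM2.5, against 17.9, 19.8, 30.7 and 28.7 CPM with PBS (0.44, SE 0.241, adjusted p = 0.336). Library 9 was the lowest PM2.5 library for both and lay inside the PBS range. Without PM2.5 libraries 17 and 18, Dtx3l was at 0.17 and Sp100 at 0.23. Parp9, the partner of Dtx3l, was at 0.24 and Parp14 at 0.12, with SEs of 0.183 and 0.150. Parp9 and Dtx3l overlap on opposite strands, and since the sources do not say whether counting used strand, their reads may not be told apart.

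Of the 6 chemokine and other induced genes, 4 were tested, with a median log2 fold change of 0.56. Rtp4, a chaperone of receptors that also restrains RNA viruses, was at 0.411, 0.586, 0.352 and 0.428 CPM with PM2.5, against 0.137, 0.112, 0.270 and 0.254 CPM with PBS. All PM2.5 libraries lay above all PBS libraries (1.21, SE 0.355, edgeR adjusted p = 0.0966, DESeq2 adjusted p = 0.0384), and without PM2.5 libraries 17 and 18 the log2 fold change was 1.13 (edgeR adjusted p = 0.371). Ifi27, a small interferon-induced membrane protein, was at 12.3, 25.2, 13.8 and 20.2 CPM with PM2.5, against 7.06, 7.50, 12.7 and 16.2 CPM with PBS. The groups overlapped through PM2.5 libraries 9 and 18 and PBS libraries 12 and 16 (0.72, SE 0.270, adjusted p = 0.187). Xaf1 and Ifi35 were at 0.41 and 0.30, with SEs of 0.272 and 0.219. Cxcl10, the chemokine that draws activated T cells, had 0 counts in every PM2.5 library and 10 counts over the PBS libraries, none of them in libraries 10 and 12. The limit used here for a count of 0 was 3 counts, which over the PM2.5 libraries would be 0.011 CPM. That limit is not absolute and covers counting error only. Ifi44 had 0 to 11 counts per PM2.5 library and 2 to 4 per PBS library.

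**Figure D3:**
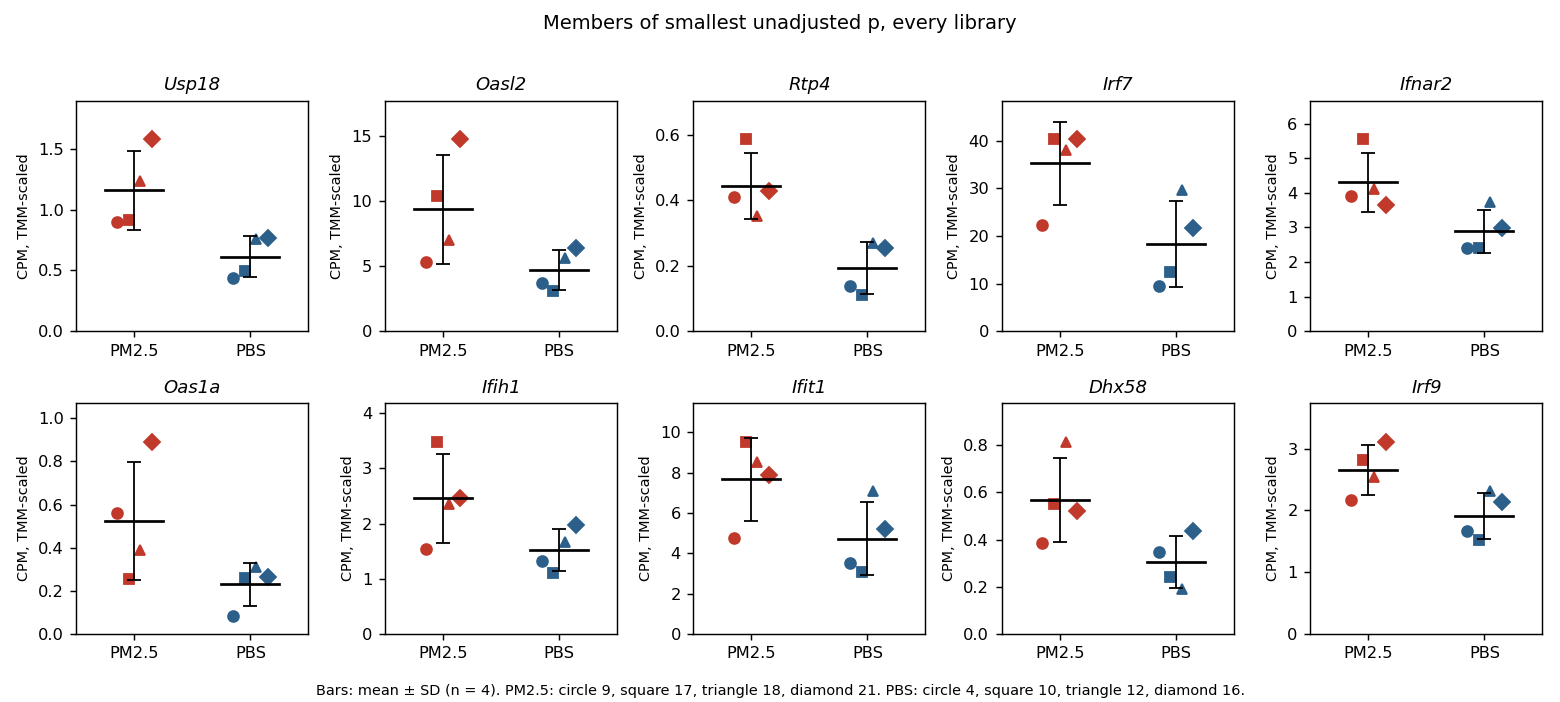
TMM-scaled CPM of the 10 members of smallest unadjusted p in every library, PM2.5 left and PBS right, with the mean and SD (n = 4). The groups are apart only for Usp18 and Rtp4 among these 10, and PM2.5 library 9 (circle) is the lowest PM2.5 point for Usp18, Oasl2, Irf7, Ifih1, Ifit1, Dhx58 and Irf9.

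The same libraries were often at the extremes of their group. PM2.5 library 9 was the lowest of its group for 21 of 38 tested members and library 17 the highest for 20. Among PBS libraries, 12 was highest for 16 members and 16 for 15, while 10 was lowest for 16 and 4 for 13. Isg20, Rsad2 and the summed erythroid markers were each highest in libraries 17 and 18 and lowest in library 9 with PM2.5, and each was highest in library 12 with PBS.

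Counts were therefore also set against single genes of the cells present, a choice made after seeing the data. Per 1000 counts of Alas2, the haem synthesis enzyme of red cell precursors, Isg20 was at 44.8 to 60.5 with PM2.5 and 52.8 to 59.2 with PBS, and Rsad2 at 85.7 to 128 with PM2.5 and 86.6 to 127 with PBS. On that scale the PM2.5 mean was 0.987 times the PBS mean for Isg20 and 0.977 times for Rsad2, and the median of that ratio over the 38 tested members was 0.983, with 17 above 1 and 21 below. Over all genes tested the median ratio on that scale was 0.714 and 8.31% were above 1. No member was apart between groups on it, beside 0.0579% of all genes higher and 5.26% lower. For Irf7 the ratio was 1.40, for Usp18 1.38 and for Rtp4 1.65, and each overlapped between groups. Per 100 counts of Ptprc, which was itself at 38.5 CPM on average with PM2.5 and 43.7 CPM with PBS, the member median ratio was 1.58, with 37 members above 1 and Ifnar1 below it at 0.924. Over all genes the median ratio was 1.17 and 70.5% were above 1. All PM2.5 libraries then lay above all PBS libraries for Ifnar2, Usp18, Ifitm2, Parp14 and Rtp4, 5 of 38, and the reverse held for 0, beside 6.58% and 2.98% of all genes. With the mean erythroid marker level as a covariate in edgeR, the member median was 0.22, and 30 of 38 were positive, against 52.0% of all genes. At an unadjusted p under 0.05, 5 members were higher, beside 5.06% of all genes. With the monocyte and neutrophil markers as the covariate the median was 0.40, 32 of 38 were positive, against 53.3%, and 6 were higher at an unadjusted p under 0.05, beside 5.62%. Neither fit called any member, and each called 0% of all genes higher, so the absence of calls there is no result about the members. Usp18, Rtp4, Oas1a and Irf7 were at 0.72, 0.82, 1.44 and 0.36 with the erythroid covariate. What part the mix of cells has in the member differences was not tested.

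**Figure D4:**
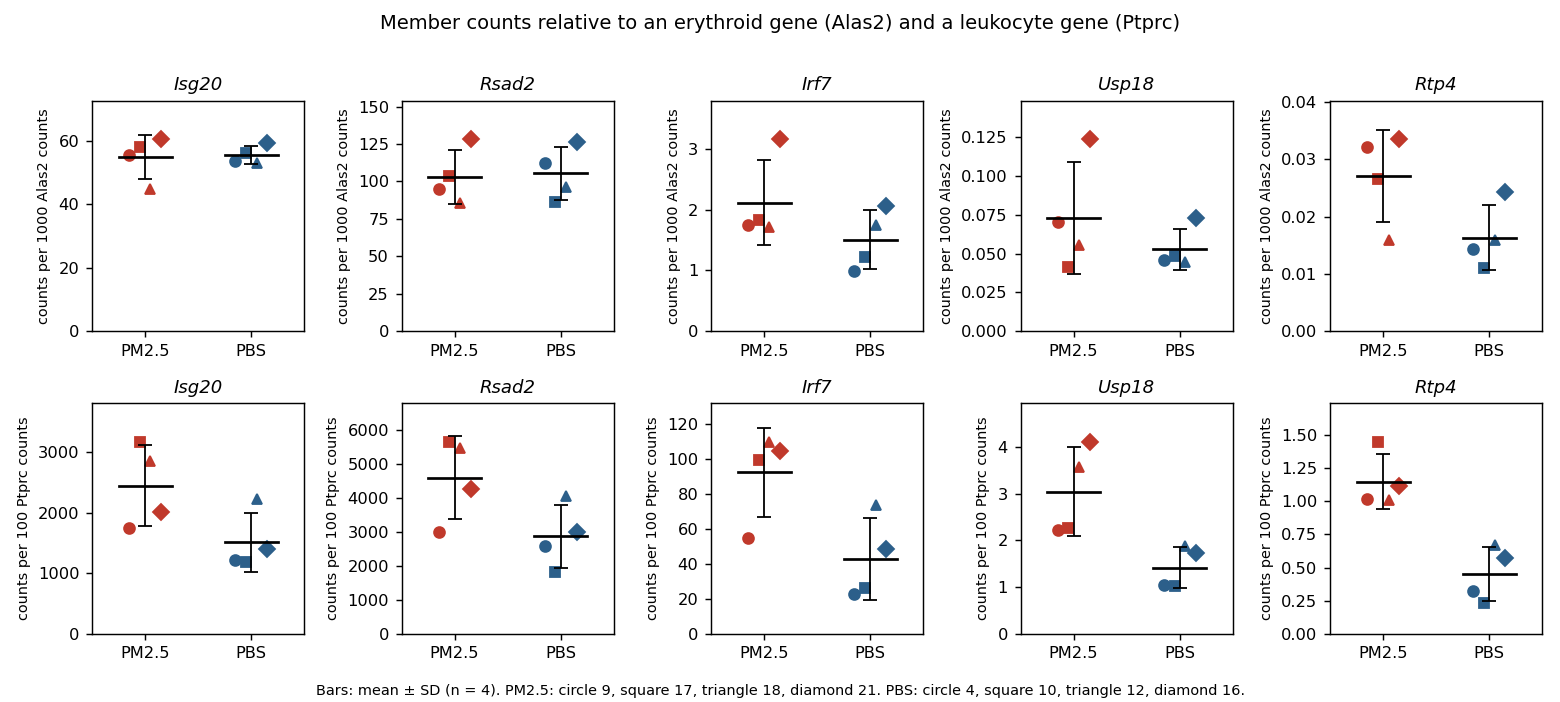
Counts of 5 members per 1000 counts of the erythroid gene Alas2 (upper row) and per 100 counts of the leukocyte gene Ptprc (lower row) in every library, PM2.5 left and PBS right, with the mean and SD (n = 4). Isg20 and Rsad2 have nearly the same mean in both groups per Alas2 count, while Usp18 and Rtp4 are apart per Ptprc count.

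Of 102 other genes of the pathway, 72 were tested. A positive log2 fold change was found for 45 of the 72, against 54.3% of all genes (median 0.15, beside 0.04 for all genes). The edgeR test called 1 higher and 1 lower, beside 0.463% and 1.14% of all genes. Socs3, an inhibitor of cytokine receptor signalling through STAT3, rose with PM2.5 to 8.05, 6.56, 4.44 and 5.38 CPM, against 1.36, 2.27, 3.29 and 2.95 CPM with PBS, without overlap (1.31, SE 0.237, adjusted p = 0.0117). It lost the call without PBS library 10 (1.24, adjusted p = 0.0714), without PM2.5 libraries 17 and 18 (1.46, adjusted p = 0.0642) or 9 and 21 (1.13, adjusted p = 0.0542) and on library totals (0.86, adjusted p = 0.101). With the erythroid and with the monocyte and neutrophil covariate, where 0 and 1 of all genes were called, it was at 1.31 and 1.35 (adjusted p = 0.176 and 0.195), and limma on log2(FPKM + 1) and log2(FPKM + 0.1), which called no gene, gave adjusted p = 0.293 and 0.290. Trim25, the ligase that helps activate RIG-I, fell with PM2.5 to 5.02, 4.23, 4.98 and 5.35 CPM, against 8.48, 9.33, 8.09 and 5.98 CPM with PBS (-0.70, SE 0.167, adjusted p = 0.0443). It kept the call without PM2.5 library 9 or PBS library 16 and lost it without any other single library (adjusted p = 0.0619 to 0.131) and without PM2.5 libraries 17 and 18 together (0.295), and in those covariate fits (-0.56 and -0.43, adjusted p = 0.416 and 0.531).

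The interferon genes themselves gave almost no counts. Of 18 type I ligand genes, 17 had 0 counts in all 8 libraries, Ifnb1 among them, and Ifnz had 1 count in each of PBS libraries 10 and 12 and 0 elsewhere. The limit of 3 counts used for a count of 0, which is not absolute, would be 0.0356 to 0.0555 CPM in a PM2.5 library. In a PBS library it would be 0.0273 to 0.0405 CPM. The kinases behind the receptor were at log2 fold changes of 0.21 (Jak1, SE 0.181) and -0.11 (Tyk2, SE 0.156). Jak1 was among the 4 of 72 tested pathway genes whose PM2.5 libraries all lay above all PBS libraries. The reverse held for 4 of the 72, beside 3.01% of all genes higher and 6.64% lower. Socs1, the main brake on the receptor kinases, was under the filter at 0.110 to 0.352 CPM with PM2.5 and 0.0549 to 0.108 CPM with PBS. Tlr7, the endosomal sensor of single-stranded RNA, was at 1.07 to 1.75 CPM with PM2.5 and 0.686 to 0.933 CPM with PBS (0.67, SE 0.212, adjusted p = 0.120).

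Of the other interferon regulatory factors tested 1 of 6 had a positive log2 fold change, against 54.3% of all genes, and Irf4 was at -0.21 (SE 0.260). The interferon gamma receptor chain Ifngr1 was at -0.19 (SE 0.177) and Il10rb, a chain of the type III receptor, at 0.48 (SE 0.202). Of 46 further interferon-induced genes tested, 31 were positive, against 54.3% of all genes, and the median of the 46 was 0.21. None was called by edgeR. At an unadjusted p under 0.05, 5 were higher and 2 lower, beside 8.79% and 9.28% of all genes. Among the 46, Slfn5 was at 0.85 (SE 0.270, adjusted p = 0.120), the nuclear body gene Sp110 at -0.39 (SE 0.156, adjusted p = 0.206) and Eif2ak2, the kinase PKR that stops translation, at 0.33 (SE 0.233, adjusted p = 0.459).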

How the data were processed

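Total RNA of 8 buffy coat samples was made into strand-marked libraries with random primers, per the labels' protocols. Tools listed in the submitters' processing notes are HISAT2 2.0.1, cutadapt 1.9.1 and bcl2fastq 2.17.1.14, with the build GRCm38. The sources used here name no counting tool or strand setting. The authors deposited expected counts per Ensembl transcript, which are estimated counts without normalization, and FPKM values scaled by transcript length and library, per the file headers.

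Of 118783 transcripts, 116710 had their identifier in GENCODE M21, and their counts were added up over 35944 genes. The others held 0.0266% to 0.0532% of counts. Sums were rounded. The two-sided quasi-likelihood test of edgeR 4.0.16 (R 4.3.3) was applied after filterByExpr (count of at least 10, total of at least 15) and TMM scaling (Benjamini-Hochberg over 10361 genes, threshold 0.05). SEs are the fold change over the square root of F. Every pair of libraries differed by more than sampling noise. The fit was tested on simulated data.

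The members and lists were chosen with earlier results of these data known. Values per library are given for the 2 members of smallest p in each role, the 10 of smallest p overall and those without overlap between groups. Of the other pathway genes, those called, the 2 of smallest p in each class and Jak1, Tyk2, Socs1, Ifnb1 and Eif2ak2 are named, and some genes that the rule selects are left out of the text. Alternatives were other scalings, filters, DESeq2 1.42.0, limma 3.58.1 on log2(FPKM + 1) or log2(FPKM + 0.1) for genes at a mean of 1 FPKM or more, marker covariates, and libraries left out. Scaling to Alas2 or Ptprc was added after seeing the data.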

Additional observations from a re-analysis of the deposited data

Results flagged for a closer look

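In 3 of 76 groups of 4 libraries checked, 1 library lay far from the other 3 by Dixon's test at the 95% level (critical value 0.829). Chance flags about 1 in 20 such groups. Irf7 was at 22.3 CPM in PM2.5 library 9, with the other PM2.5 libraries at 38.2 to 40.4 CPM. Zbp1 was at 0.421 CPM in PM2.5 library 17, with the others at 0.697 to 0.713 CPM. Ifit3 was at 0.423 CPM in PM2.5 library 9, with the others at 0.165 to 0.19 CPM.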

How the results depend on the processing

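The number of members called higher was 0 with edgeR and became 10 with no filter on low counts and 3 with DESeq2, and 0 to 1 when single libraries were left out. No member was called lower under any alternative run. The member median of 0.497 was 0.305 with limma on log2(FPKM + 1) relative to the shift of all genes, 0.221 with the erythroid covariate and -0.0242 per Alas2 count (where the median ratio of all genes was 0.714), and 0.367 to 0.605 without single libraries. The cause of these moves was not tested. On library totals the median of all genes shifted by -0.569, and relative to it the member median was 0.512. On the FPKM scales it shifted by -0.322 and -0.42, and 9 of 19 members were positive before that shift was taken off.

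As fitted, 21 of 38 members changed sign on library totals and 9 of 19 on each FPKM scale. The changes of sign below, none of them at a called value, are those left once the shift of all genes is taken off on those 3 scales. With the erythroid covariate Mx1 was at 0.415, Cmpk2 at -0.134, Rsad2 at -0.0201, Sp100 at -0.0628, Herc6 at -0.124, Dtx3l at -0.0591 and Oas3 at -0.322. With the monocyte and neutrophil covariate Mx1 was at 0.548, Adar at -0.133, Oas2 at -0.219, Stat2 at -0.0577 and Ifit3 at -0.494. Oas3 was at -0.00829 among genes of at least 1 CPM, at -0.152 on log2(FPKM + 1) and at -0.0883 on log2(FPKM + 0.1). Without PM2.5 libraries 9 and 21 Ddx58 was at 0.0755 and Ifit3 at -0.459. Without single libraries Mx1 ran from -0.432 to 0.357, Oas3 from -0.101 to 0.205, Oas2 from -0.00409 to 0.941, Stat2 from -0.019 to 0.261, Ddx58 from -0.257 to 0.247 and Ifit3 from -0.418 to 0.247. With the shifts taken off in that way, 664 member values under alternatives kept sign and side of the threshold, 31 changed sign and 15 came to pass it. No paired analysis was possible because the groups share no replicate numbers. At 0.1 to 1 CPM, where many members lie, each library rests on few counts.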
